A study of Mus musculus with 12 samples.

Results

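The Janus kinases (JAKs) and the signal transducers and activators of transcription (STATs) were followed as 9 genes in mouse Th9 cells: the 4 kinases Jak1, Jak2, Jak3 and Tyk2 and the 5 factors Stat3, Stat4, Stat5a, Stat5b and Stat6. They were chosen by symbol from a table of 32051 genes, and all 9 were present once and passed the minimum level for testing. Naive CD4+ T cells from mouse spleens (C57BL/6J by the labels) were activated with anti-CD3 and anti-CD28 and polarized to Th9 cells, a helper subset that makes IL-9, with IL-4 at 10 ng/mL, TGF-β at 1 ng/mL and antibodies to IL-12 and IFN-γ. The 4 groups received DMSO as vehicle, endomelipeptide A (EpA, a cyclic peptide of fungal origin) at 10 μM, fatostatin (an inhibitor of SREBP, the factor that drives lipid synthesis genes) at 5 μM, or both compounds, and RNA was taken on day 4 from 3 libraries per group. Compound or vehicle was present throughout the culture. The study calls its Th9 RNA-seq samples independent, but neither it nor the labels say whether the libraries of a group came from separate mice or cultures. The p-values therefore measure the spread between these libraries, which may be technical.

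JAKs sit on the inner tails of cytokine receptors, phosphorylate them when a cytokine binds, and so recruit STATs, which are phosphorylated in turn, pair, and act in the nucleus. Jak1 and Jak3 serve receptors that use the common gamma chain, such as those for IL-2, IL-4, IL-7, IL-9 and IL-21. IL-4 signals through Stat6, IL-2 and IL-7 through Stat5a and Stat5b, IL-6 and IL-21 largely through Stat3, and IL-12 through Tyk2, Jak2 and Stat4. RNA levels say nothing of the phosphorylation by which these proteins act, and in a bulk culture fewer cells of a type and less RNA per cell cannot be told apart.

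Levels are in FPKM, fragments per kilobase of exon scaled to the mapped reads of the library, which may be compared between genes. The libraries held 36607303 to 44375791 reads on genes by reconstruction from the FPKM, and the 9 genes had between 948 (Stat4) and 27541 (Stat3) reads each. Differences are given as log2 of (FPKM + 0.1) and were tested with limma over 13733 genes, and a gene was called where its Benjamini-Hochberg adjusted p fell below 0.05. T cell markers were high in every library, with Cd3e at 39.9 to 54.2 FPKM and Cd4 at 78.1 to 92.2 FPKM against 0.430 to 1.93 FPKM for Cd8a and 6.40 to 8.61 FPKM for Cd8b1, the CD8 chains. The sum of the 2 CD8 chains was 8.71 to 9.79 FPKM with DMSO and 7.85 to 8.57 FPKM with EpA, which did not overlap, and 8.55 to 10.2 FPKM with fatostatin and 6.98 to 8.60 FPKM with both, which did, and its part was not tested. The summed level of the 7 T cell markers used (of 8 listed) was 1038 to 1062 FPKM with DMSO and 1032 to 1064 FPKM with fatostatin, against 842 to 850 FPKM with EpA and 827 to 850 FPKM with both. This sum moved with EpA, and its part in the EpA differences below was not tested. The 4 NK cell markers summed to 0.196 to 0.308 FPKM with DMSO and 0.244 to 0.307 FPKM with fatostatin, against 0.140 to 0.174 FPKM with EpA and 0.120 to 0.169 FPKM with both, so this low sum also moved with EpA, and its part was not tested. The 5 B cell markers, most of whose sum was Cd79b (4.66 to 7.43 FPKM), came to 5.99 to 7.90 FPKM with DMSO, 5.20 to 6.23 FPKM with EpA, 7.55 to 8.68 FPKM with fatostatin and 6.29 to 6.89 FPKM with both. This sum was lower with both than with fatostatin alone and higher with both than with EpA alone, without overlap, and overlapped in the comparisons with DMSO, and its part in the EpA and fatostatin differences was not tested. The 6 myeloid markers summed to 0.222 to 0.594 FPKM with DMSO, 0.373 to 0.554 FPKM with EpA, 0.415 to 0.484 FPKM with fatostatin and 0.514 to 0.771 FPKM with both. This low sum was higher with both than with fatostatin alone, without overlap, and overlapped between EpA and DMSO, and its part was not tested.

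Stat5b was the most abundant of the 9 genes, with a mean of 69.1 FPKM over the 12 libraries, followed by Stat3 at 63.9 FPKM and Stat5a at 53.4 FPKM. Jak1 (51.0 FPKM), Jak2 (50.8 FPKM), Stat6 (48.1 FPKM) and Jak3 (42.4 FPKM) formed a middle group. Tyk2 at 11.3 FPKM and Stat4 at 9.001 FPKM were the scarcest. By mean level Stat4 ranked 5036 and Stat5b 683 among the tested genes.

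**Figure D1:**
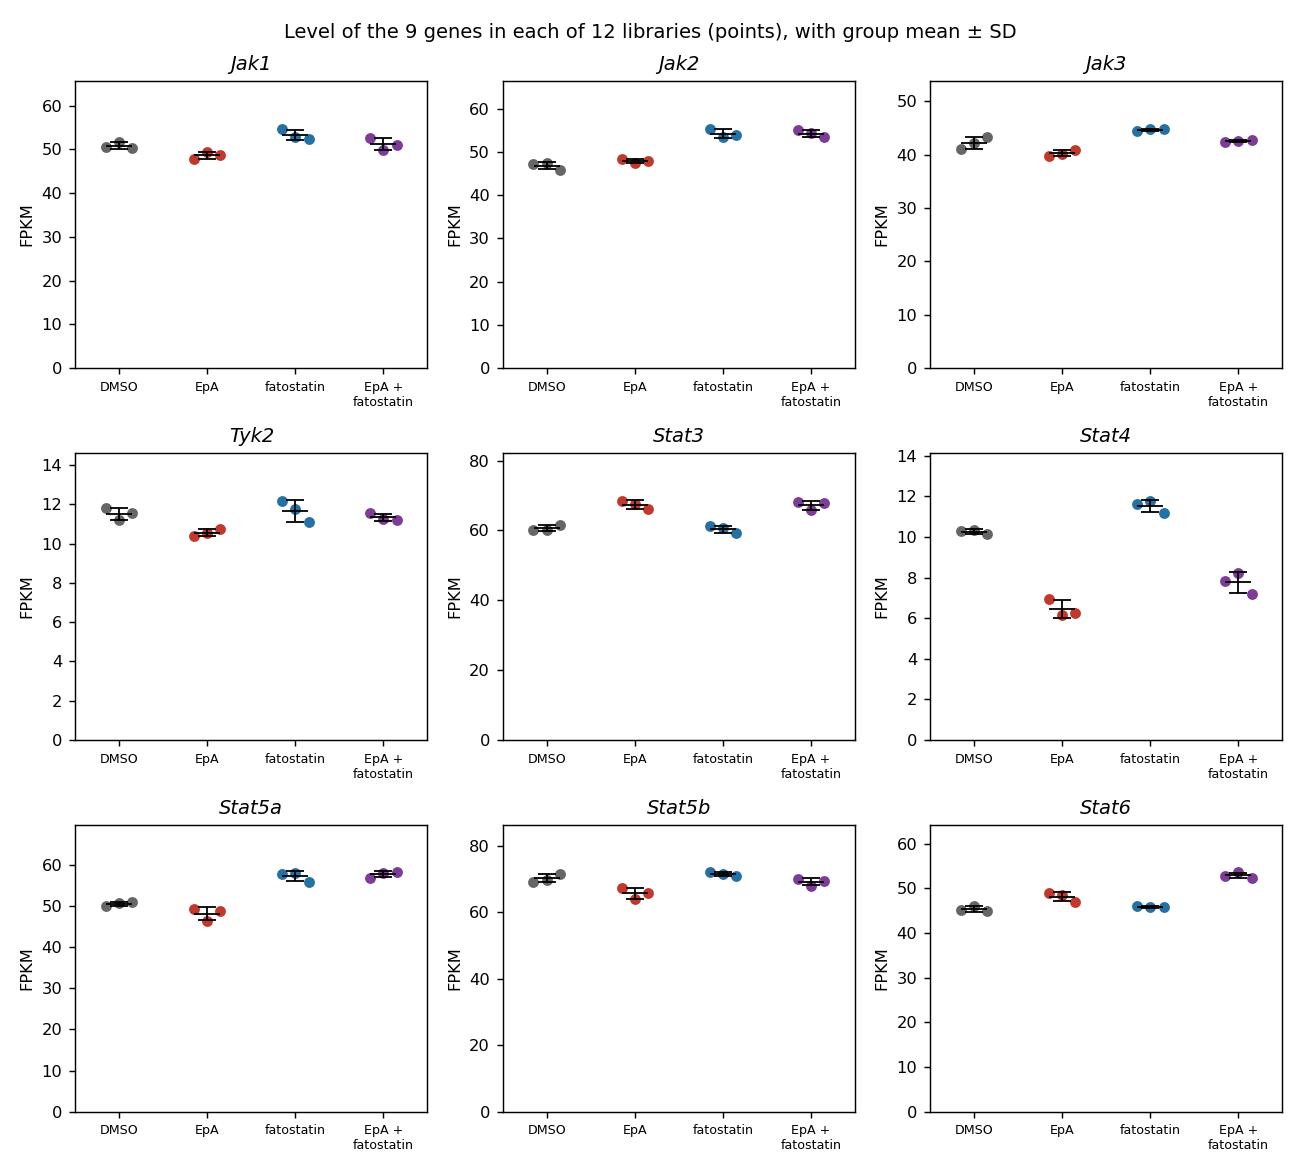
Level of each of the 9 genes in FPKM (vertical axes, from 0) in the 12 libraries, by group; points are libraries, and the dash and bars are the mean and SD of 3 libraries. Stat4 sits at 6.14 to 6.95 FPKM with EpA against 10.2 to 10.3 FPKM with DMSO, while the other 8 genes shift by small amounts between tight groups.

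EpA was compared with DMSO to ask which of the genes the peptide changed. Of the 9 genes, 6 were called, beside 27.4% of all tested genes. Stat3 and Stat6 rose, beside 14.3% of tested genes, and Jak3, Tyk2, Stat4 and Stat5b fell, beside 13.1%. The 3 libraries of one group lay entirely above or below those of the other for 9 of 9 genes, against 42.4% of tested genes. With a fold of at least 1.5 added to the rule, 1 gene, Stat4, remained, against 3.38% of tested genes. The median difference of the 9 was -0.07 on the log2 scale beside 0.00 over all tested genes, and the median size without sign was 0.09 beside 0.12. Here and in the comparisons below, the tested genes reach down to a mean of 0.1 FPKM. Their shares were not matched to the higher levels of the 9. With a minimum mean of 1 FPKM, 3598 of 10298 genes were called in EpA against DMSO, and 6 of the 9.

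Fatostatin was compared with DMSO to ask what this compound alone did, and SREBP activity was not measured here. Jak2, Jak3 and Stat5a were called, all higher, which is 3 of 9 beside 7.69% of tested genes called higher. All 3 fatostatin libraries lay above all 3 DMSO libraries for 5 of the 9, beside 16.5% of tested genes. The median difference of the 9 genes was 0.07 beside 0.01 over all tested genes.

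The 2 compounds together were set against each alone. Against EpA alone, Jak2, Jak3, Stat4, Stat5a, Stat5b and Stat6 were called, all higher, which is 6 of 9 beside 9.22% of tested genes called higher. Against fatostatin alone, Stat3 and Stat6 were higher and Jak3 and Stat4 lower, which is 4 of 9 beside 29.5% of tested genes. Against DMSO, the combination gave 5 of 9 called beside 35.5% of tested genes, with Jak2, Stat3, Stat5a and Stat6 higher and Stat4 lower. Averaged over the presence of the other compound, EpA gave 7 calls of 9 (2 higher and 5 lower, beside 41.3% of tested genes) and fatostatin gave 7, all higher (beside 14.1% called higher). Of the EpA calls, Stat4 alone passed a fold of 1.5, beside 3.55% of tested genes, and with a pseudocount of 1 its difference of -0.56 fell short of that fold. These comparisons share libraries with each other and are not independent.

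**Figure D2:**
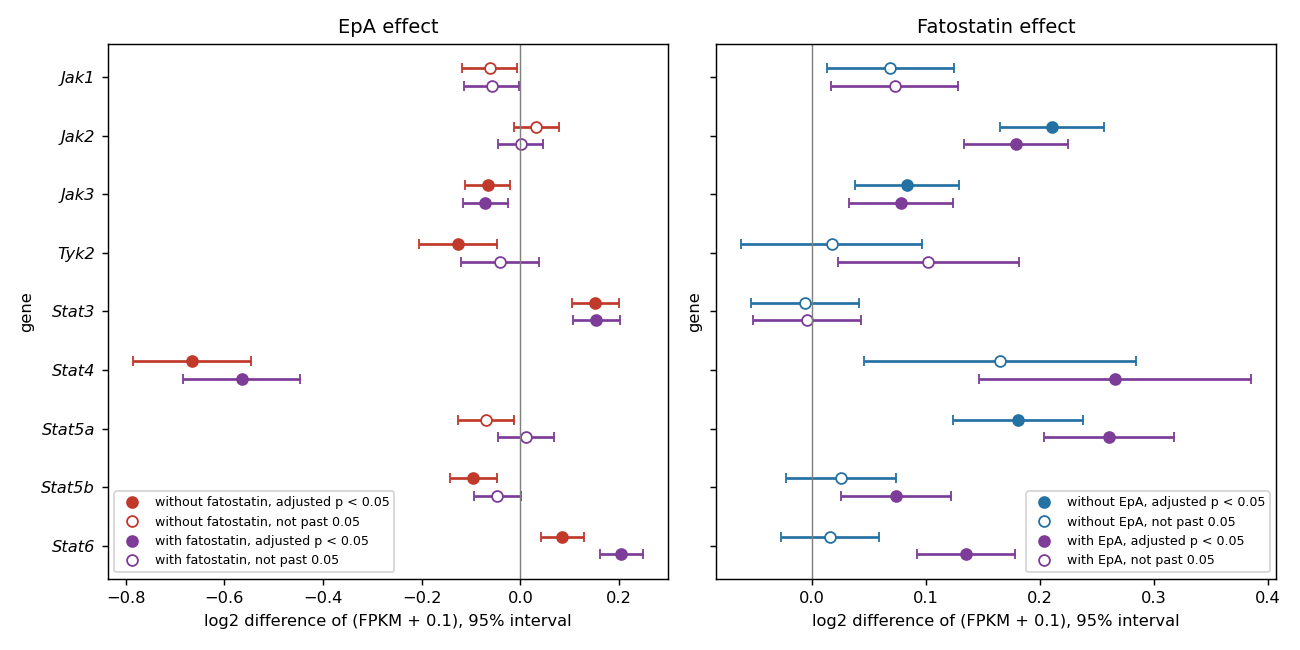
Differences in log2(FPKM + 0.1) with 95% intervals for the 9 genes (rows): at left EpA against its control without and with fatostatin, at right fatostatin against its control without and with EpA. Filled points passed an adjusted p of 0.05, open points did not, and Stat4 stands out at left at -0.67 and -0.57 while Jak2 and Stat5a lie to the right of 0 at right.

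Jak1, the kinase shared by most of these receptors, shifted by a few percent. It stood at 50.4, 51.7 and 50.3 FPKM with DMSO, at 47.8, 49.4 and 48.8 FPKM with EpA, at 54.7, 52.9 and 52.3 FPKM with fatostatin and at 52.7, 49.8 and 51.1 FPKM with both. The EpA libraries lay below those of DMSO and the fatostatin libraries above them. Neither single comparison was called, with differences of -0.06 (95% interval -0.12 to -0.01, adjusted p = 0.0954) and 0.07 (0.01 to 0.12, adjusted p = 0.103). Averaged over the other compound, EpA lowered it by a difference of -0.06 (adjusted p = 0.0191, but 0.0600 and so no call with TPM scaling) and fatostatin raised it by 0.07 (adjusted p = 0.0129). Its exons share 4 bases with Raver2 on the opposite strand.

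Jak2, which carries signals of the IL-12, IFN-γ and growth hormone receptor families, rose with fatostatin whether or not EpA was present. It measured 47.3, 47.4 and 45.9 FPKM with DMSO and 48.4, 47.5 and 47.9 FPKM with EpA. With fatostatin it measured 55.3, 53.4 and 54.0 FPKM, and with both 55.2, 54.3 and 53.4 FPKM. All 6 fatostatin-treated libraries lay above all 6 others. Fatostatin raised Jak2 by 0.21 (SE 0.0208, adjusted p = 4.59e-05) without EpA and by 0.18 (adjusted p = 0.000141) with it. The effect of EpA was 0.03 (interval -0.01 to 0.08, adjusted p = 0.290) without and 0.00 (interval -0.04 to 0.05, adjusted p = 0.988) with fatostatin. Of the variance of Jak2 over the 12 libraries, 95.2% went with fatostatin.

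Jak3, the kinase bound to the common gamma chain, moved in opposite directions with the 2 compounds. It stood at 41.0, 42.2 and 43.2 FPKM with DMSO and at 39.8, 40.0 and 40.9 FPKM with EpA. With fatostatin the libraries gave 44.5, 44.8 and 44.8 FPKM, and with both 42.3, 42.5 and 42.8 FPKM. The combination thus lay within the range of DMSO (difference 0.01, adjusted p = 0.690). EpA changed Jak3 by -0.07 (adjusted p = 0.0350) without and -0.07 (adjusted p = 0.0230) with fatostatin, and fatostatin by 0.08 (adjusted p = 0.0195) without and 0.08 (adjusted p = 0.0244) with EpA. Each of these 4 calls was lost in 5 or 6 of 22 alternative analyses. Leaving out DMSO replicate 1, 2 or 3 in turn moved the adjusted p of EpA against DMSO to 0.0128, 0.0834 and 0.135. Jak3 shares 404 exon bases on the same strand with Insl3, a hormone gene at group means of 4.27 to 4.73 FPKM, which is 7.55% of the Jak3 exons.

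Tyk2, a partner kinase of the IL-12 and type I interferon receptors, was lower with EpA alone. It stood at 11.8, 11.2 and 11.6 FPKM with DMSO and at 10.4, 10.5 and 10.7 FPKM with EpA. Fatostatin gave 12.2, 11.7 and 11.1 FPKM and both compounds 11.5, 11.2 and 11.2 FPKM, which overlapped DMSO. The EpA difference was -0.13 (SE 0.0361, adjusted p = 0.0227), and with fatostatin present it was -0.04 (interval -0.12 to 0.04, adjusted p = 0.441). These EpA differences were not shown to differ from each other (0.08, adjusted p = 0.760), and the first lost its call without DMSO replicate 1 (adjusted p = 0.0829), DMSO replicate 3 (0.0626), EpA replicate 1 (0.0767) or EpA replicate 2 (0.0590). An antisense gene, 1700084C06Rik, which was not used here, covers 8.07% of the Tyk2 exons, and reads of the 2 cannot be separated if strand was not used in counting.

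Summed over Jak1, Jak2, Jak3 and Tyk2, the kinases came to 151 ± 1.02 FPKM (SD, n = 3) with DMSO, 147 ± 0.993 with EpA, 164 ± 2.42 with fatostatin and 159 ± 2.08 with both. Every fatostatin-treated library, from 158 to 167 FPKM, lay above every other library, from 146 to 152 FPKM. Jak1 made up 33.6% of the sum with DMSO and 32.1% with both compounds, and Jak2 rose from 31.0% to 34.1%.

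Stat4, the factor of IL-12 signaling and Th1 differentiation, had the largest difference of the 9 genes in both EpA comparisons. It stood at 10.3, 10.3 and 10.2 FPKM with DMSO and fell to 6.95, 6.14 and 6.24 FPKM with EpA. Fatostatin gave 11.6, 11.8 and 11.2 FPKM, and both compounds gave 7.85, 8.24 and 7.21 FPKM. The 4 groups did not overlap, in the order EpA, both, DMSO and fatostatin. EpA lowered Stat4 to 0.630 of its DMSO level, a difference of -0.67 (SE 0.0542, interval -0.78 to -0.55, adjusted p = 5.36e-06). With fatostatin present EpA lowered it to 0.676 of the level with fatostatin alone (-0.57, adjusted p = 1.60e-05), in libraries shared with neither arm of the first comparison. In size, the first of these exceeded 94.7% of tested genes. Fatostatin raised Stat4 by 0.27 (adjusted p = 0.00621) in the presence of EpA. Without EpA the difference was 0.17 (interval 0.05 to 0.28, adjusted p = 0.0675), which missed the threshold, passed it in 4 of 22 alternatives and was not shown to differ from the former (0.10, adjusted p = 0.830). The call with EpA present was lost when only its 2 groups were fitted (adjusted p = 0.0515).

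Stat4 lies at chr1:51987148-52107189 on the plus strand of GRCm38. Averaged over fatostatin, EpA changed Stat4 by -0.62 (adjusted p = 2.45e-07), and averaged over EpA, fatostatin raised it by 0.22 (adjusted p = 0.00158). Stat2, a factor of type I interferon signaling that is not one of the 9, rose with fatostatin by 0.13 (adjusted p = 0.00133). A same-strand transcript, Gm28177, which was not used here, shares 1033 bases or 26.7% of the Stat4 exons, so part of the Stat4 count could come from it. The 250 bases before the first RefSeq start of Stat4, which is shown as the gene with the largest difference, are at chr1:51986898-51987147 on the plus strand of GRCm38.p6, and hold no match to the motifs described with Stat6, so no letters are in capitals.
Stat4: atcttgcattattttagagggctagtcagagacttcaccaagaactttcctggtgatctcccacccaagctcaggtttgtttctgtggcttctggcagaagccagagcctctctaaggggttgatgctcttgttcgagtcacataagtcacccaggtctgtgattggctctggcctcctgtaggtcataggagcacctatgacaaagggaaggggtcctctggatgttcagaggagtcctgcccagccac

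Stat3, the main factor of IL-6 and IL-21 signaling, rose with EpA and not detectably with fatostatin. It measured 60.2, 60.1 and 61.7 FPKM with DMSO, 68.5, 67.5 and 66.1 FPKM with EpA, 61.2, 60.6 and 59.3 FPKM with fatostatin and 68.0, 65.7 and 67.8 FPKM with both. All 6 libraries with EpA lay above all 6 without. The EpA difference was 0.15 (SE 0.0215, adjusted p = 0.000339) without and 0.15 (adjusted p = 0.000275) with fatostatin. The fatostatin difference was -0.01 (interval -0.05 to 0.04, adjusted p = 0.897) without and -0.0040 (interval -0.05 to 0.04, adjusted p = 0.929) with EpA. Of the variance of Stat3 over the 12 libraries, 93.4% went with EpA. The 3′ ends of Stat3 and Stat5a overlap by 72 exon bases on opposite strands, 0.756% of the Stat3 exons. The ratio of Stat3 to Stat4, which move in opposite directions with EpA, was 5.91 ± 0.148 with DMSO and 10.5 ± 0.571 with EpA, and 5.24 ± 0.0839 with fatostatin and 8.68 ± 0.715 with both (SD, n = 3).

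Stat6, the factor through which the IL-4 in these cultures signals, rose with EpA. It measured 45.1, 46.1 and 44.9 FPKM with DMSO and 49.0, 48.5 and 47.0 FPKM with EpA. Fatostatin alone gave 46.1, 45.7 and 45.9 FPKM, overlapping DMSO, and both compounds gave 52.8, 53.5 and 52.4 FPKM, above every other library. EpA raised Stat6 by 0.09 (SE 0.0196, adjusted p = 0.00740) without and by 0.20 (adjusted p = 1.61e-05) with fatostatin. Fatostatin changed it by 0.02 (interval -0.03 to 0.06, adjusted p = 0.667) without EpA and raised it by 0.14 (adjusted p = 0.000744) with EpA. Nab2, on the opposite strand, shares 40 exon bases with Stat6, 0.909% of its exons. The test of the difference between the EpA effects gave 0.12 (SE 0.0277, unadjusted p = 0.00123), which did not pass after adjustment over all genes (adjusted p = 0.305, and 0.262 to 0.492 over the alternatives). By limma this difference of effects called 0 of the 9 genes, beside 0.0437% of tested genes. At an unadjusted p under 0.05 it held for 1, Stat6, beside 7.89% of tested genes, and limma-voom on reconstructed reads called 0.

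The promoter of Stat6 is shown because it held the only match of the 12 RefSeq promoters of these 9 genes to any of 5 motifs searched on both strands, each promoter running from 250 bases before the start to 50 after. The motifs were the gamma-activated site bound by STATs with a 3-base spacer (TTCNNNGAA) or with a 4-base spacer, which Stat6 accepts, the sterol response element bound by SREBP (TCACNCCAC), the AP-1 site (TGANTCA) and the E-box (CACGTG). Of 32851 mouse promoters of this length, 8.30%, 6.95%, 1.24%, 7.81% and 7.15% held them, in that order. The Stat6 match, in capitals, reads as a sterol response element and begins 85 bases before the start, at chr10:127642901-127642909. It is a match of letters only, and whether SREBP binds there was not measured. The 250 bases lie at chr10:127642736-127642985 on the plus strand of GRCm38.p6.
Stat6: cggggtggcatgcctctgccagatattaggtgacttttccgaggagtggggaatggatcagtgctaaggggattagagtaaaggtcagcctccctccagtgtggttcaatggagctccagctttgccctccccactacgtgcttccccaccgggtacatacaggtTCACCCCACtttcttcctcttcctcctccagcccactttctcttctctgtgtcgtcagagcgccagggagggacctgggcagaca

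Stat5a and Stat5b, neighbouring genes for closely related factors of IL-2 and IL-7 signaling, are described together. Stat5a stood at 49.96, 50.6 and 50.9 FPKM with DMSO, at 49.3, 46.2 and 48.9 FPKM with EpA, at 57.8, 58.1 and 55.8 FPKM with fatostatin and at 56.8, 58.1 and 58.1 FPKM with both. All 6 fatostatin-treated libraries lay above the other 6. Fatostatin raised it by 0.18 (SE 0.0259, adjusted p = 0.000692) without and by 0.26 (adjusted p = 4.24e-05) with EpA. The EpA difference was -0.07 (interval -0.13 to -0.01, adjusted p = 0.0700) without and 0.01 (-0.05 to 0.07, adjusted p = 0.806) with fatostatin.

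Stat5b stood at 69.2, 69.8 and 71.6 FPKM with DMSO, at 67.4, 64.1 and 65.7 FPKM with EpA, at 72.0, 71.6 and 70.8 FPKM with fatostatin and at 70.1, 68.0 and 69.4 FPKM with both. It was lowest with EpA alone, where its 3 libraries lay below all others. EpA lowered it by -0.10 (SE 0.0219, adjusted p = 0.00730) without fatostatin, and with fatostatin the difference was -0.05 (interval -0.10 to 0.00, adjusted p = 0.137). Fatostatin gave 0.03 (interval -0.02 to 0.07, adjusted p = 0.515) without EpA and 0.07 (adjusted p = 0.0410) with it. The last call was lost in 12 of 22 alternatives, with an adjusted p of 0.146 without EpA replicate 2. The ratio of Stat5a to Stat5b was 0.719 ± 0.00767 with DMSO and 0.732 ± 0.0113 with EpA, against 0.801 ± 0.0110 with fatostatin and 0.834 ± 0.0220 with both (SD, n = 3), and the libraries with fatostatin did not overlap those without. The difference between the responses of the pair was not tested.

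The coding sequences of Stat5a (2391 bases) and Stat5b (2358 bases) were identical at 90.8% of 2290 aligned bases and shared a run of 324 identical bases, so reads from such stretches cannot be assigned to 1 gene. Of the 50-base windows in annotated transcripts, 608 of 5535 (10.98%) of Stat5b and 608 of 7407 of Stat5a also occur in the other gene. At 100 bases 265 windows were shared, 4.79% of those of Stat5b. The genes are 8627 bases apart on chromosome 11, Stat5b at chr11:100780731-100850724 on the minus strand and Stat5a at chr11:100859351-100885169 on the plus strand. The stretch of 90 coding bases (88 to 177 from the start codon in both) where they differ most, at 28 positions in capitals, shows sequence by which reads can be told apart.
Stat5a: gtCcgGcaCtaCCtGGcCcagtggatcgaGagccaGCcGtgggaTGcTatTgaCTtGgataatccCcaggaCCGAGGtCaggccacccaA
Stat5b: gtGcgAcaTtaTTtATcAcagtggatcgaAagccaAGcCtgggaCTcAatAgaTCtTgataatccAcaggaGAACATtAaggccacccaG

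**Figure D3:**
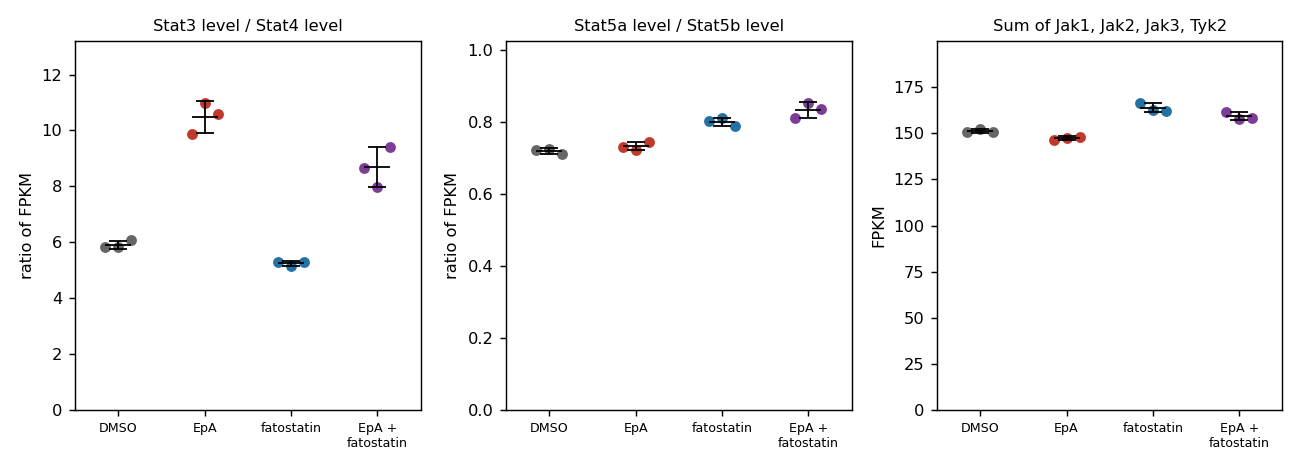
Ratio of Stat3 to Stat4 and of Stat5a to Stat5b (FPKM over FPKM) and the summed level of Jak1, Jak2, Jak3 and Tyk2 (FPKM) in the 12 libraries, by group, with axes from 0; points are libraries, and dash and bars are mean and SD. The Stat3 to Stat4 ratio moves with EpA (5.91 with DMSO, 10.5 with EpA), and the other 2 quantities separate the libraries with fatostatin from those without.

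The effects of each compound could be set side by side in libraries that share no sample. The EpA differences without and with fatostatin had the same sign for 8 of 9 genes, beside 76.7% of all tested genes, and the fatostatin differences without and with EpA for 9 of 9, beside 71.0%. Genes are not independent replicates, and these shares are descriptions.

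By likeness of profile over the 12 libraries (Pearson r of log2 values, compared with 10297 genes averaging 1 FPKM or more), Stat4 was closest to Celf2, an RNA-binding protein gene (r = 0.984), and to the protease gene Ctse (0.982). Jak2 was closest to Smad3, a mediator of TGF-β signaling (0.990), and Ei24 (0.986). Stat5a was closest to Inf2 (0.992) and Zmynd8 (0.974), Stat3 to Dennd5a (0.989) and Epn2 (0.986), and Stat6 to Birc3 (0.972) and Abhd18 (0.970). Jak3 was closest to Ube2h (0.973) and H13 (0.964), Jak1 to Flna (0.960) and Tfdp2 (0.953), Stat5b to 1700017B05Rik (0.952) and Mlxip (0.952), and Tyk2 to Cep97 (0.899) and Mef2a (0.897). The 12 points fall into 4 groups that all genes share, so these values are descriptions only.

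The receptors upstream were followed as lists, whose counts can be read beside the shares of all tested genes. EpA, averaged over fatostatin, gave 22.0% higher and 19.3% lower, and fatostatin, averaged over EpA, gave 14.1% higher and 11.5% lower. Unless another comparison is named, the list counts and differences here and below are averaged in this way. Of 9 tested receptors of the gamma chain family, EpA averaged over fatostatin raised 2 and lowered 5, beside 22.0% and 19.3%. Il9r, the IL-9 receptor, fell from 1.35 to 1.47 FPKM with DMSO to 0.563 to 0.640 FPKM with EpA, with an averaged difference of -0.99 (SE 0.0736, adjusted p = 1.02e-06), and Il7r fell by 0.53 on the log2 scale (adjusted p = 3.78e-08). Il2ra, the high-affinity IL-2 receptor chain, rose from 693 ± 8.18 to 876 ± 1.44 FPKM (SD, n = 3; averaged difference 0.32, adjusted p = 2.07e-08), and Il21r rose by 0.15 (adjusted p = 1.04e-05). The median difference of the list was -0.29 beside 0.01 over all tested genes. With fatostatin, 3 rose and 3 fell, beside 14.1% and 11.5% of all tested genes. Il21r (0.17, adjusted p = 9.22e-06) and the common chain Il2rg (0.09, adjusted p = 0.00576) were higher, and Crlf2 (-0.20, adjusted p = 0.00243) and Il2rb (-0.14, adjusted p = 2.74e-06) were lower.

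Of 18 tested other JAK-coupled receptors, out of 26 listed, EpA raised 5 and lowered 3, beside 22.0% and 19.3% of all tested genes. The interleukin-6 receptor gene Il6ra fell by 0.41 (adjusted p = 7.89e-08) and Ifngr1 by 0.24 (adjusted p = 7.67e-06) on the log2 scale. Il10ra rose by 0.31 (adjusted p = 4.45e-05) and Il12rb2, the signaling chain for IL-12, by 0.23 (adjusted p = 0.000327). Fatostatin raised 3, among them Il6ra (0.14, adjusted p = 0.000808) and Ifnar1 (0.12, adjusted p = 0.000906), and lowered 1, Il6st (-0.10, adjusted p = 0.0206), beside 14.1% and 11.5% of all tested genes.

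Regulators of the pathway, in 1 list of SOCS and PIAS genes and 1 of phosphatases and adaptors, moved both ways. Against DMSO, EpA alone raised 0 and lowered 1 of 12 SOCS and PIAS genes, beside 14.3% and 13.1% of all tested genes. With fatostatin present it raised 3 and lowered 3, beside 29.5% of all tested genes called either way. Averaged over fatostatin, EpA raised 5 and lowered 4, beside 22.0% and 19.3% of all tested genes. Among them were Socs3, a feedback inhibitor of Stat3 signaling, higher by 0.31 (adjusted p = 3.90e-05), Socs5, higher by 0.21 (adjusted p = 0.0186), and Pias3 (-0.17, adjusted p = 0.00595) and Cish (-0.14, adjusted p = 7.52e-06), lower. Fatostatin raised 3 of the 12, beside 14.1% of all tested genes, among them Socs5 (0.19, adjusted p = 0.0450) and Socs7 (0.10, adjusted p = 0.0125). Of 9 phosphatases and adaptors, to be read beside the same shares, EpA raised 2 (Ptpn1 0.17, adjusted p = 1.96e-06, and Ptpn2 0.07, adjusted p = 0.00642) and lowered 3, Ptprc (CD45) by 0.33 (adjusted p = 1.12e-07) and Pdlim2 by 0.24 (adjusted p = 0.00196) on the log2 scale among them. Ptprc rose with fatostatin by 0.24 (adjusted p = 2.63e-06), while Sh2b1 and Ptpn6 fell by 0.06 each (adjusted p = 0.0219 and 0.0281).

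Genes known as targets of each STAT were counted beside the factors. The lists were chosen with earlier results of these data known, so their counts are descriptions only. Of 16 STAT5 targets, EpA raised 10 and lowered 5, beside 22.0% and 19.3% of all tested genes. Lta, a lymphotoxin gene, rose from 16.2 ± 0.563 to 41.8 ± 0.418 FPKM (SD, n = 3; averaged difference 1.48, adjusted p = 1.21e-10), and Cdkn1a, a cell cycle inhibitor, rose by 0.87 (adjusted p = 2.28e-11). The cytotoxic granule gene Gzmb fell by 0.37 (adjusted p = 4.85e-09) and Bcl2 by 0.26 (adjusted p = 2.80e-06) on the log2 scale. Fatostatin raised 8 and lowered 4, beside 14.1% and 11.5% of all tested genes, with Cdkn1a (0.87, adjusted p = 2.29e-11) and Lta (0.24, adjusted p = 0.000299) higher and Osm (-0.31, adjusted p = 1.42e-05) and Il24 (-0.22, adjusted p = 1.73e-06) lower. With EpA, Osm (0.32, adjusted p = 4.96e-06) and Il24 (0.57, adjusted p = 4.21e-10) rose. Cdkn1a stood at 26.2 FPKM with DMSO, 52.2 FPKM with either compound and 87.2 FPKM with both, as group means.

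Of 11 tested STAT4 targets, EpA raised 2 and lowered 6, beside 22.0% and 19.3% of all tested genes. The chemokine receptor gene Cxcr3 fell from 6.44 to 7.47 FPKM with DMSO to 2.16 to 2.83 FPKM with EpA (averaged difference -1.45, adjusted p = 2.85e-08), and Ifng, a cytokine of Th1 cells, by 0.59 (adjusted p = 0.000219) on the log2 scale. Furin (0.32, adjusted p = 3.49e-07) and Il12rb2 rose, the latter by the value given above. With fatostatin 3 rose, among them Tbx21, which encodes T-bet (0.32, adjusted p = 0.00112, against -0.53, adjusted p = 1.48e-05, with EpA), and Lcp2 (0.15, adjusted p = 8.67e-05, against -0.07, adjusted p = 0.00578, with EpA), and 1 fell, Ets1 (-0.05, adjusted p = 0.0175), beside 14.1% and 11.5% of all tested genes.

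The counts that follow stand beside 22.0% higher and 19.3% lower of all tested genes for EpA, and 14.1% and 11.5% for fatostatin. Of 14 tested STAT3 targets, EpA raised 6 and lowered 4. Il21 rose from 1.15 to 1.36 FPKM with DMSO to 3.04 to 3.48 FPKM with EpA (averaged difference 1.52, adjusted p = 7.85e-09), while Il6ra and Maf (-0.06, adjusted p = 0.0329) fell. Maf fell with fatostatin by 0.47 (adjusted p = 1.91e-08) and Junb by 0.12 (adjusted p = 0.00291) on the log2 scale, and Il6ra rose, among 3 raised and 2 lowered. Junb rose with EpA, by 0.48 (adjusted p = 4.19e-08). Of 15 STAT6 targets, EpA raised 4, a share near that of all tested genes, and lowered 6. The chemokine genes Ccl17 (1.44, adjusted p = 5.48e-08) and Ccl22 (1.26, adjusted p = 2.70e-08) rose, and Epas1 fell by 0.96 (adjusted p = 1.22e-09) and the IL-4 receptor gene Il4ra by 0.33 (adjusted p = 3.64e-09) on the log2 scale. Il4ra stood at 118 ± 1.42 FPKM with DMSO and 93.0 ± 1.21 FPKM with EpA (SD, n = 3). Fatostatin raised 5, with Ccl17 (0.74, adjusted p = 2.17e-05) and Ccl22 (0.68, adjusted p = 6.96e-06) foremost, and lowered 4, among them Il24 and Batf (-0.09, adjusted p = 0.00452), of which Batf rose with EpA by 0.32 (adjusted p = 1.59e-07). Some genes stand in 2 lists, such as Il24 and Il6ra, and target lists from general knowledge do not show which factor acted here.

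**Figure D4:**
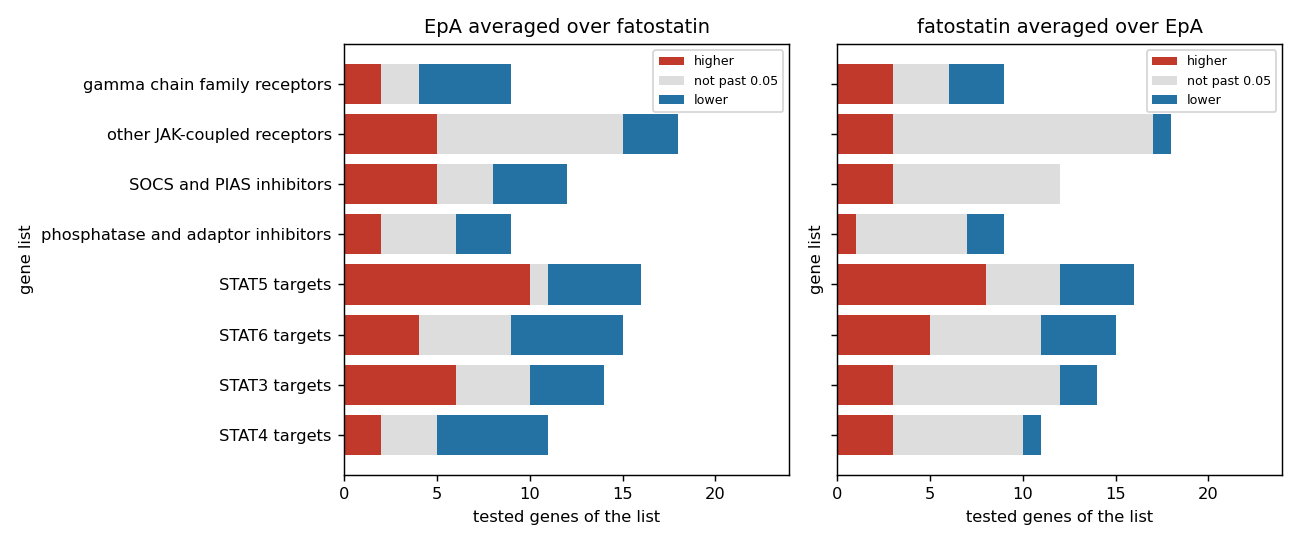
Tested genes of 8 JAK and STAT pathway lists (rows) that were higher, lower or not past an adjusted p of 0.05 (horizontal axis, number of genes), for EpA averaged over fatostatin (left) and fatostatin averaged over EpA (right). The row named phosphatase and adaptor inhibitors also holds genes that are not inhibitors, such as Sh2b1. With EpA, 10 of 16 STAT5 targets were higher and 5 lower, and 2 of 11 STAT4 targets were higher and 6 lower. These counts stand beside 22.0% higher and 19.3% lower of all tested genes.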

How the data were processed

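RNA-seq of 12 libraries (4 groups of 3) was deposited as 1 table. The authors used Trim Galore for trimming, HISAT2 for alignment (GRCm38) and featureCounts for gene counts, which were deposited as FPKM; the annotation and the use of strand are not given in the sources used here. The table held 32352 lines for 32051 genes, and 301 repeat lines with equal values were dropped. Exon lengths from GENCODE M21 (99.9% of genes) gave whole reads, within 0.05 of a read, for 98.4% to 98.6% of nonzero values. Values were taken as log2(FPKM + 0.1), so folds of low genes are understated, and genes averaging 0.1 FPKM or more were fitted in R 4.3.3 with limma 3.58.1 (4 group means, intensity trend), with two-sided p-values adjusted by Benjamini-Hochberg over 13733 genes. Named genes were the 9 genes, for each list the 2 with the largest change each way in the averaged comparisons (averaging 1 FPKM or more, adjusted p below 0.05), genes whose exons overlap the 9, and for each of the 9 the 2 genes with the most similar profile. The members and lists were chosen with earlier results of these data known. Replicate numbers did not pair the libraries: same-numbered libraries correlated at -0.0881 to 0.113 in their deviations. Promoters are from RefSeq (GRCm38.p6), all 9 genes matched, and transcripts from GENCODE M21, read with Python 3.11.15 and aligned with biopython 1.88. Protein sequences were not used here, and some genes of the lists are counted but not reported by name. Alternatives were other pseudocounts, minimum levels and scalings, no trend, limma-voom on reconstructed reads, a replicate block, 2 groups only, and each library left out. The fit was tested on simulated data.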

Additional observations from a re-analysis of the deposited data

How the results depend on the processing

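Of 1359 differences of the 9 genes recomputed under the alternatives, 1267 kept direction and side of the threshold, 49 lost and 12 gained a call, and 31 changed sign, the last all between values near 0 that were not called. With TPM scaling, Stat3 in both compounds against EpA was 0.00450 and in fatostatin averaged over EpA 0.00202. With median ratio scaling, Jak2 in both against fatostatin was -0.00971, and the differences between EpA effects were -0.00342 for Jak1 and -0.00535 for Stat3. Leaving out 1 library each gave, for Stat3, -0.0162 to 0.00665 (fatostatin against DMSO), -0.0178 to 0.0116 (both against EpA), -0.0121 to 0.00265 (fatostatin averaged) and -0.0115 to 0.0179 (difference between EpA effects). It gave -0.0137 to 0.0542 for Tyk2 (fatostatin against DMSO), -0.0111 to 0.0153 for Jak2 and -0.00699 to 0.0216 for Stat5a (both against fatostatin), and -0.0165 to 0.0236 for Jak1 and -0.0236 to 0.0140 for Jak3 (difference between EpA effects). The cause was not tested.

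The number of genes called in fatostatin against DMSO was 3, and became 5 by limma-voom and 2 without the intensity trend. In EpA against DMSO it was 6, and became 7 by limma-voom, 5 without the trend and 5 with 2 groups only. In both against EpA it was 6, and became 7, 4 and 4 under the same settings. In both against fatostatin it was 4, and became 3 without the trend. With a fold of 1.5 added, calls were 1 (EpA against DMSO and EpA averaged) and 0 in fatostatin against DMSO, both against EpA, both against fatostatin and fatostatin averaged. With the replicate block, calls were 6, 3, 6, 4, 0, 7 and 7, as without it, and 3 of 12 libraries correlated best with a library of their own number. With 1 library left out, calls ranged from 4 to 6 (EpA against DMSO), 2 to 4 (fatostatin against DMSO), 4 to 6 (both against EpA), 3 to 4 (both against fatostatin), 6 to 7 (EpA averaged) and 6 to 8 (fatostatin averaged), and stayed at 0 for the difference between EpA effects. The number of genes among all tested with a differing EpA effect was 6, and 19 by limma-voom, 10 with a pseudocount of 0.01, 2 with TPM scaling, 0 with the block and 0 to 2 with 1 library left out. The smallest p that an exact permutation of 3 against 3 allows is 0.1, so single genes were judged by the fit over all genes.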
